A study of Mus musculus with 47 samples.

Results

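The genes described here encode the subunits of the 5 oxidative phosphorylation complexes, taken from both the nuclear and the mitochondrial genome. They were chosen by gene symbol alone, from the rows of the kidney count table. Symbols beginning with Uqcr, Cox4 to Cox8, Atp5 or the mitochondrial prefixes for these complexes were taken. Those beginning with Nduf were taken where a letter a, b, c, s or v and then a digit or b follow. Sdha, Sdhb, Sdhc and Sdhd were taken by their full symbols. The symbols matched 98 genes, and leaving out 2 processed pseudogenes gave 96 genes of the 22474 in the table. Of these, 83 are nuclear (38 of complex I, 4 of complex II, 8 of complex III, 16 of complex IV and 17 of complex V) and 13 are mitochondrial (7 of complex I, 1 of complex III, 3 of complex IV and 2 of complex V). All 96 passed the filter on low counts. Atp5s and Atp5sl match by symbol although they are not subunits of the ATP synthase, and Ndufa4 was counted with complex I by its symbol although it is now assigned to complex IV.

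Messenger RNA of mouse kidney was sequenced from 3 inbred strains: C57BL/6J, the strain of the reference genome; CAST/EiJ, a wild-derived strain; and NZO/HlLtJ, a strain known for obesity and diabetes. Females and males of each strain were fed a diet with 10% fat or one with 44% fat, both with fiber, from week 6, and kidneys were collected at week 15. The series describes the diets as a control diet and one high in fat and sugar, so fat and sugar cannot be told apart, and all mice were labelled wild type with no further treatment. This gave 12 groups with 4 libraries each, except the CAST/EiJ males on 10% fat with 3, and 47 libraries in all. The labels do not say that each library came from a different mouse, so p-values measure the spread between libraries.

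Oxidative phosphorylation passes electrons from NADH and succinate through complexes I and II to complex III and then through complex IV to oxygen, and complex V, the ATP synthase, uses the resulting proton gradient to make ATP. Complexes I, III, IV and V are built from subunits of both genomes, whereas complex II is wholly nuclear encoded. Kidney tubules, above all the proximal tubule, are rich in mitochondria and meet most of their energy need in this way.

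Library totals ran from 34394546 to 58433712 counts, with a median of 44759432. The mitochondrial members without mt-Co2 took 9.96% to 14.3% of all counts of a library, and the nuclear members 1.39% to 1.88%. The proximal tubule endocytosis receptor Lrp2 was present in every library at 4473 to 10242 CPM, the count relative to a library total that is scaled by the trimmed mean of M-values (TMM). In bulk tissue, fewer cells of a type and less RNA per cell cannot be told apart.

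Several members have copies elsewhere in the nuclear genome that share their sequence, and the table counts reads for those copies separately. Of the nuclear members 16 have such a copy in the table, and for 4 of them (Atp5g2, Cox5b, Ndufab1 and Ndufb4) the copies held at least 10% as many counts as the member in some strain. To 9 mitochondrial members such a copy was assigned, and for 5 (mt-Co2, mt-Co3, mt-Atp6, mt-Nd3 and mt-Nd4l) the copies reached that level. For the other mitochondrial members with a copy, mt-Co1, mt-Nd2, mt-Nd4 and mt-Nd5, the copies held at most 0.05% as many counts. No copy was found in the table for mt-Nd1, mt-Nd6 and mt-Cytb. mt-Atp8 shares 7.47% of its sequence words with Gm10925, which was counted as the copy of mt-Atp6. Some nuclear members share words with a gene in the table that was not counted as a copy, among them Ndufb6 (34.45%), Cox5a (34.47%) and Uqcrc2 (25.17%).

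The clearest case was mt-Co2 (MT:7013-7696, GRCm38), which encodes the subunit of cytochrome c oxidase that takes electrons from cytochrome c. Its level was 4051 to 6933 CPM in the 16 C57BL/6J libraries (median 5464), 3695 to 6737 CPM in the 16 NZO/HlLtJ libraries (median 4687) and 10.9 to 20.1 CPM in the 15 CAST/EiJ libraries (median 13.5). The pseudogene Gm13341 (chr2:22587291-22587962, minus strand) did the reverse, with 0.118 to 0.802 CPM in C57BL/6J, 0 to 0.381 CPM in NZO/HlLtJ and 2263 to 6013 CPM in CAST/EiJ. CAST/EiJ libraries did not overlap those of the other strains for either gene. For this reason mt-Co2 was left out of every comparison that involves CAST/EiJ. A further copy, Gm28661 (chr1:24614885-24615565, minus strand), had medians of 9466, 8516 and 7993 CPM in C57BL/6J, CAST/EiJ and NZO/HlLtJ. With both copies added, the medians of mt-Co2 were 15209, 12334 and 12678 CPM.

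The 3 sequences below are shown because they set out how closely the copies follow mt-Co2 in the reference genome, over bases 453 to 512 of its coding sequence. Capitals mark the bases at which mt-Co2 and Gm13341 differ, 6 in this stretch and 16 of 669 aligned bases over the whole copy, whereas Gm28661 differs at 0 of 681.
mt-Co2: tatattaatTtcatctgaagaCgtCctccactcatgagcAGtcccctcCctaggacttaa
Gm13341: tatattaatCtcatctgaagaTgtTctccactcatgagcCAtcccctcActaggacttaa
Gm28661: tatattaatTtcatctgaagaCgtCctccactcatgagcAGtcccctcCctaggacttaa

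Among the other mitochondrial members, the copies of mt-Atp6, mt-Co3 and mt-Nd4l are identical to them in the reference, with 0 of 678, 0 of 783 and 0 of 294 bases differing. The copy of mt-Nd3, Gm28438, differs at 1 of 345 bases. That base lies near the start of the gene and is shown in capitals in bases 1 to 60, to let a reader see how little separates the pair.
mt-Nd3: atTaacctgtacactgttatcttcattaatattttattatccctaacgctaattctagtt
Gm28438: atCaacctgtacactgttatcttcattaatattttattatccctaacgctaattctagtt

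A nuclear member showed the same kind of exchange. Atp5g2 (chr15:102662864-102672352, minus strand), 1 of the genes for the membrane-embedded c subunit of the ATP synthase, had 2.79 to 7.31 CPM in C57BL/6J, 2.77 to 9.12 CPM in NZO/HlLtJ and 81.1 to 96.1 CPM in CAST/EiJ. Its copy Gm10175 on chromosome 7, with 0 of 438 aligned bases differing, had 73.8 to 87.4, 69.7 to 102 and 0 to 0.144 CPM in the same order. The difference between CAST/EiJ and C57BL/6J was 4.12 on the log2 scale for Atp5g2 alone and 0.07 for Atp5g2 and its copies together. Summed mean levels were 85.5, 89.8 and 87.4 CPM in C57BL/6J, CAST/EiJ and NZO/HlLtJ.

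Levels were compared between genes only per length, as CPM per kilobase of the longest annotated coding transcript, averaged over all libraries. The mitochondrial members led, with mt-Co1, the catalytic subunit of cytochrome c oxidase, at 26086 CPM per kilobase, mt-Cytb, the cytochrome of complex III, at 17170, mt-Nd4 at 10524 and mt-Nd1 at 10340. Among nuclear members the highest was Atp5b, the catalytic beta subunit of the ATP synthase, at 1284, followed by its partner Atp5a1 at 655, the c subunit gene Atp5g3 at 649 and the cytochrome c oxidase subunit Cox4i1 at 603. Without the counts of copies, Atp5b stood above mt-Nd3, at 1216, which was then the lowest mitochondrial member and the only one below a nuclear member. mt-Nd3 is 348 bases long and averaged 423 CPM without its copy. With the counts of its copy Gm28438 added, its lowest strain mean was 914 CPM, in CAST/EiJ. Its place below Atp5b therefore rests on leaving the copy out, and a ranking with copies added was not made.

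The median of the nuclear members was 87.3 CPM per kilobase in complex I, 184 in complex II, 221 in complex III, 208 in complex IV and 213 in complex V. The 5 lowest members were paralogues known from other tissues or states: Ndufa4l2 at 2.43, Cox6b2 at 2.38, Cox8b at 1.59, Cox6a2 at 0.858 and Cox4i2 at 0.403. Above them came Atp5s at 5.33, Ndufb2 at 9.54, whose longest transcript is 4371 bases, and the muscle paralogue Cox7a1 at 9.56. Their common counterparts stood far above them, with Ndufa4 at 353, Cox8a at 487, Cox6a1 at 422, Cox6b1 at 338 and Cox7a2 at 267 CPM per kilobase.

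**Figure D1:**
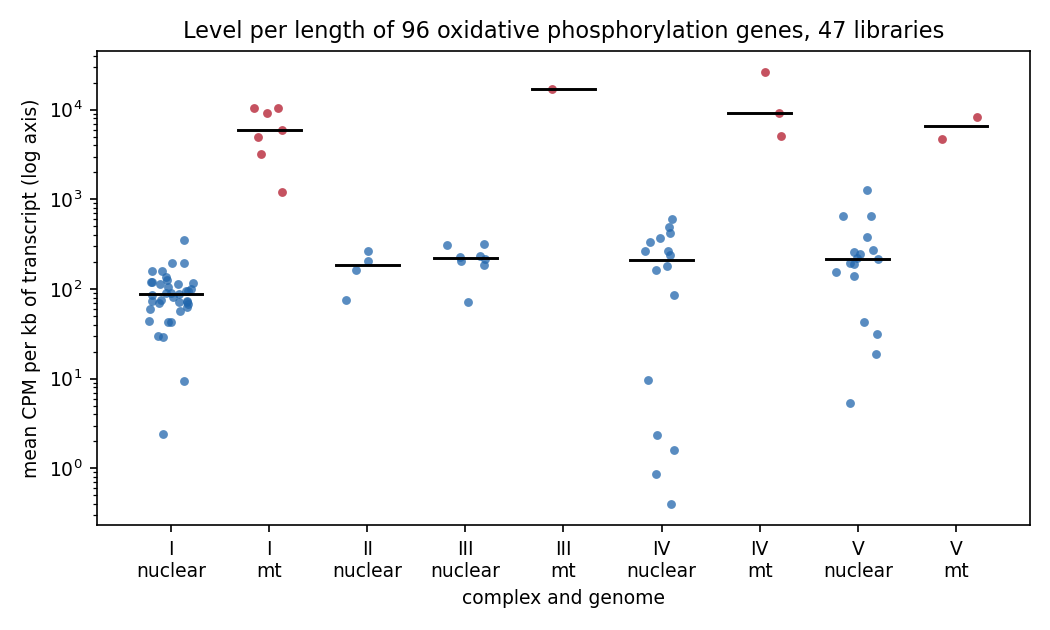
Mean level over all libraries of each member, in CPM per kilobase on a log axis, by genome and complex. Counts of copies are not added, and the mt-Co2 point includes the CAST/EiJ libraries. Each point is 1 gene and each bar a median; the mitochondrial members lie at 1216 or above and the lowest nuclear points, the Cox4i2, Cox6a2, Cox8b, Cox6b2 and Ndufa4l2 paralogues, lie at 2.43 or below.

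Strain differences were tested over both sexes and diets with edgeR's quasi-likelihood test, with p-values adjusted over the 18786 genes tested by the Benjamini-Hochberg method and called at 0.05. In CAST/EiJ against C57BL/6J, 61 of 83 nuclear members were higher and 10 lower, where 71.4% of all genes tested were called, 36.2% higher and 35.2% lower. The median difference of the nuclear members was 0.18 on the log2 scale, against 0.01 over all genes. Of the 12 mitochondrial members compared, 4 were higher and 5 lower, with a median of -0.08.

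In NZO/HlLtJ against C57BL/6J, 54 nuclear members were higher and 8 lower, where 52.2% of all genes were called, 26.4% higher and 25.8% lower, and the median was 0.13 against 0.00 over all genes. Of the 13 mitochondrial members none was higher and 9 were lower, with a median of -0.24. These comparisons share the C57BL/6J libraries. In NZO/HlLtJ against CAST/EiJ, 19 nuclear members were higher and 40 lower, and 7 of 12 mitochondrial members were lower with none higher, where 70% of all genes were called.

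In complex I, the entry point for NADH electrons, 24 of 38 nuclear members were higher in CAST/EiJ than in C57BL/6J and 8 lower. In NZO/HlLtJ against C57BL/6J, 22 were higher and 5 lower. The accessory subunit Ndufb6 (chr4:40270591-40279421, minus strand) had 58.3, 65.8 and 77.9 CPM as its lowest, median and highest value in C57BL/6J, 85.5, 109 and 130.1 CPM in CAST/EiJ, and 60.4, 74.3 and 96.2 CPM in NZO/HlLtJ. Every CAST/EiJ library was above every C57BL/6J library, and NZO/HlLtJ overlapped both. Its difference was 0.74 ± 0.042 (log2 ± SE) in CAST/EiJ against C57BL/6J (edgeR adjusted p = 1.65e-19) and 0.21 in NZO/HlLtJ. Ndufb6 shares 34.45% of its sequence words with a gene not counted as a copy. The part of that sharing in its levels was not tested.

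The iron-sulfur subunit Ndufv2 was 0.53 ± 0.035 higher in CAST/EiJ than in C57BL/6J, with 137 to 190 CPM (189.5 at the highest) against 109.5 to 130 CPM (129.7), so the strains did not overlap. Ndufs4, an accessory subunit known from inherited complex I deficiency, was 0.29 ± 0.033 higher in NZO/HlLtJ than in C57BL/6J (edgeR adjusted p = 9.05e-10). It had 72.4, 80.9 and 97.0 CPM in NZO/HlLtJ and 62.2, 65.8 and 72.2 CPM in C57BL/6J, with no overlap. Ndufc2, a small subunit of the membrane arm, went the other way, 0.44 on the log2 scale lower in NZO/HlLtJ (log2 difference -0.44 ± 0.033, edgeR adjusted p = 4.63e-15), with 37.5 to 49.7 CPM against 47.9 to 66.1 CPM in C57BL/6J. The ranges of Ndufc2 overlapped at their ends.

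Ndufv1, which holds the NADH site, was -0.08 ± 0.031 in CAST/EiJ (adjusted p = 0.0303) and 0.20 in NZO/HlLtJ against C57BL/6J, both called with edgeR. Ndufa4l2, a paralogue of Ndufa4 known to be induced by low oxygen, was -0.32 ± 0.094 in CAST/EiJ and 0.47 ± 0.091 in NZO/HlLtJ. Its medians were 1.76 CPM in CAST/EiJ, 2.04 CPM in C57BL/6J and 3.06 CPM in NZO/HlLtJ, and the ranges overlapped between the strains. Ndufa4 itself was not called in CAST/EiJ (0.03, adjusted p = 0.564). Ndufb3 and Ndufa6 were lower than in C57BL/6J in both strains, with -0.19 and -0.18 in CAST/EiJ and -0.26 and -0.16 in NZO/HlLtJ.

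In complex II, which oxidises succinate to fumarate, the iron-sulfur subunit Sdhb was higher in CAST/EiJ by 0.33 ± 0.030 and in NZO/HlLtJ by 0.25, and the membrane anchor Sdhd by 0.18 and 0.27. The other anchor, Sdhc, was 0.20 higher in NZO/HlLtJ and was not called in CAST/EiJ at -0.07. The flavoprotein Sdha was -0.07 in NZO/HlLtJ (edgeR adjusted p = 0.0252) and -0.01 in CAST/EiJ, where it was not called.

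In complex III, which passes electrons from ubiquinol to cytochrome c, all 8 nuclear members were higher in CAST/EiJ than in C57BL/6J, with a median of 0.37, and 6 of 8 were higher in NZO/HlLtJ, with a median of 0.19. The core protein Uqcrc1 (chr9:108936633-108949623, plus strand) had 258, 293 and 320.3 CPM in C57BL/6J, 377, 428 and 474 CPM in CAST/EiJ, and 309.7, 349 and 422 CPM in NZO/HlLtJ, as lowest, median and highest. CAST/EiJ lay wholly above C57BL/6J, while NZO/HlLtJ lay between them and overlapped each. Its difference from C57BL/6J was 0.57 ± 0.029 in CAST/EiJ (edgeR adjusted p = 4.93e-21) and 0.27 ± 0.029 in NZO/HlLtJ (adjusted p = 2.17e-10). The small subunits Uqcrq, Uqcr10 and Uqcr11 were 0.51, 0.46 and 0.46 higher in CAST/EiJ. The Rieske iron-sulfur protein Uqcrfs1 was 0.29 higher, the core protein Uqcrc2 0.24 and the hinge protein Uqcrh 0.11.

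In complex IV, cytochrome c oxidase, 13 of 16 nuclear members were higher in CAST/EiJ and 1 was lower, and 9 were higher and 1 lower in NZO/HlLtJ, both against C57BL/6J. Cox7a2, the common form of subunit 7a, had 132.5, 147 and 166 CPM in C57BL/6J and 185, 220.0 and 251 CPM in CAST/EiJ, with no overlap, and was 0.56 ± 0.032 higher (edgeR adjusted p = 2.87e-19). Cox8a and Cox5a were 0.44 and 0.35 higher in CAST/EiJ. Cox5b was 0.53 higher in CAST/EiJ alone, but with its copy Gm11273 added its mean was 163, 188 and 173 CPM in C57BL/6J, CAST/EiJ and NZO/HlLtJ. The copy held 23.2 to 42.3 CPM in C57BL/6J and 0.023 to 0.515 CPM in CAST/EiJ.

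The paralogues with tissue-restricted expression differed among themselves. Cox6a2, the heart and muscle form of subunit 6a, had 0.0497, 0.230 and 0.423 CPM in C57BL/6J, 0.618, 1.25 and 1.58 CPM in CAST/EiJ, and 0.137, 0.334 and 0.713 CPM in NZO/HlLtJ. It was 2.39 ± 0.204 higher in CAST/EiJ (edgeR adjusted p = 9.26e-14) and 0.80 ± 0.222 higher in NZO/HlLtJ (adjusted p = 0.00244) than in C57BL/6J. Cox6b2, known as the testis form of subunit 6b, had 0.969 to 2.51 CPM in C57BL/6J and 0.300 to 0.877 CPM in CAST/EiJ, with no overlap, a difference of -1.65 ± 0.115. Cox8b, a muscle and brown fat form of subunit 8, was 1.00 ± 0.354 higher in CAST/EiJ (adjusted p = 0.0122), with wide overlap. Cox4i2 was not called (-0.00 ± 0.228, adjusted p = 0.992).

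Markers of brown adipocytes and of skeletal muscle were read beside these paralogues. Of 5 brown adipocyte markers 4 were higher in CAST/EiJ than in C57BL/6J, where 36.2% of all genes were higher and 35.2% lower. Their summed level was 16.8 to 36.9 CPM in CAST/EiJ, 11.1 to 23.4 CPM in C57BL/6J and 12.5 to 23.6 CPM in NZO/HlLtJ. The list includes Ppargc1b, a coactivator gene that was never at 0, with 10.3 to 22.4 CPM and a median of 15.7. The other markers had medians of 1.27 CPM (Ucp1), 0.401 CPM (Cidea), 0.0251 CPM (Elovl3) and 0.57 CPM (Dio2). Ucp1 was at 0 in 5 libraries, Cidea in 3 and Elovl3 in 21. The summed skeletal muscle markers were lower in CAST/EiJ, at 0.298 to 0.965 CPM against 0.641 to 1.27 CPM in C57BL/6J, with 1 of 2 tested called. The part of such cells in the levels of Cox6a2 and Cox8b was not tested.

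In complex V, the ATP synthase, 14 of 17 nuclear members were higher and 1 lower than in C57BL/6J in CAST/EiJ, and likewise 14 and 1 in NZO/HlLtJ. Atp5k, subunit e of the membrane sector, had 47.4, 56.3 and 72.0 CPM in C57BL/6J, 74.5, 89.7 and 104.5 CPM in CAST/EiJ, and 57.9, 68.1 and 82.0 CPM in NZO/HlLtJ. It was 0.65 ± 0.050 higher in CAST/EiJ (edgeR adjusted p = 8.37e-15), without overlap, and 0.24 higher in NZO/HlLtJ, with overlap. Atp5o, the stalk subunit that ties the catalytic head to the membrane part, was 0.46 and 0.30 higher, and Atp5b 0.29 higher in CAST/EiJ. Atp5sl, which is not a synthase subunit, was the member called lower in CAST/EiJ (-0.36 ± 0.032, adjusted p = 4.9e-13), and Atp5s was -0.22 in NZO/HlLtJ.

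**Figure D2:**
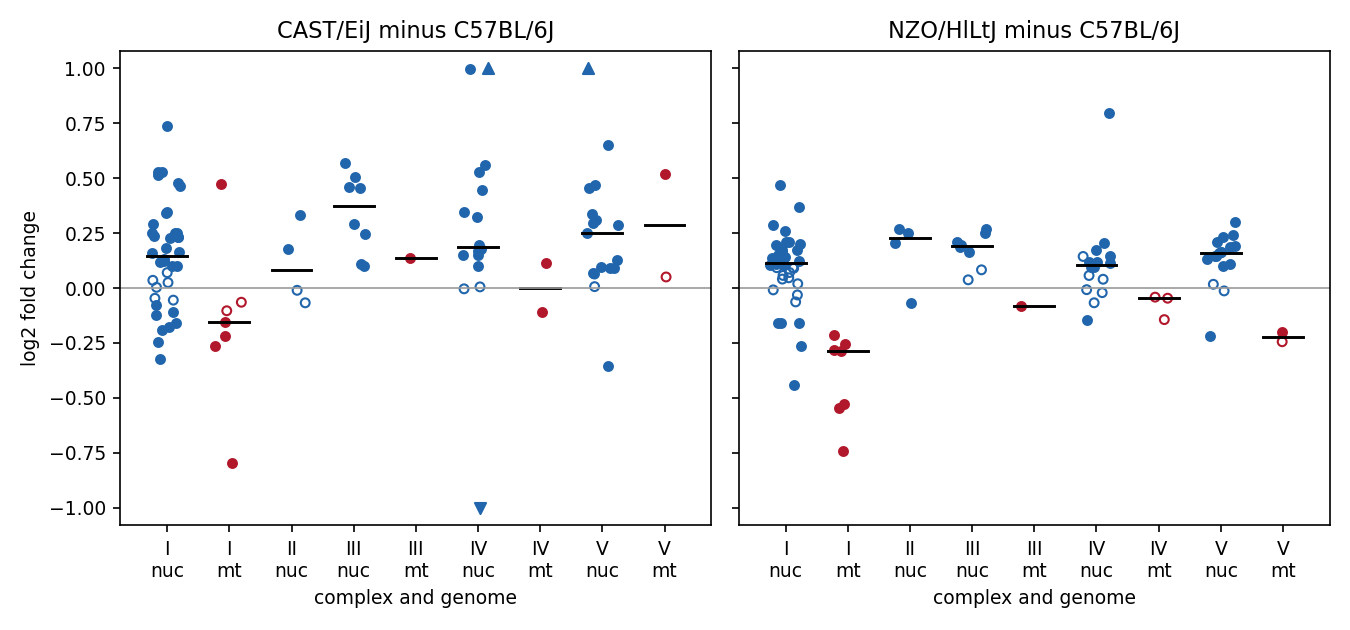
Log2 difference from C57BL/6J of each member in CAST/EiJ and in NZO/HlLtJ, by complex and genome. Filled symbols passed the test at an adjusted p of 0.05, open symbols did not, bars are medians, and triangles mark members beyond 1 on either side (Cox6a2, Cox6b2 and Atp5g2); all 8 nuclear complex III points lie above 0 in CAST/EiJ, and no mitochondrial point was called higher in NZO/HlLtJ.

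Markers of kidney cell types were read beside the strain differences. Of all genes, 71.4% were called in CAST/EiJ against C57BL/6J, 36.2% higher and 35.2% lower. In NZO/HlLtJ against C57BL/6J, 52.2% were called, 26.4% higher and 25.8% lower. Marker counts near these shares do not stand out from all genes. The summed thick ascending limb markers were 5826 to 7815 CPM in CAST/EiJ, 4119 to 6350 CPM in C57BL/6J and 2961 to 5926 CPM in NZO/HlLtJ. Of these 6 markers 4 were higher and 1 lower in CAST/EiJ than in C57BL/6J, and 2 and 2 in NZO/HlLtJ. The proximal tubule markers summed to 14922 to 23866 CPM in CAST/EiJ, 19287 to 26997 CPM in C57BL/6J and 17599 to 25361 CPM in NZO/HlLtJ, with 6 of 12 higher and 5 lower in CAST/EiJ and 3 and 3 in NZO/HlLtJ. The macrophage markers summed to 111 to 172 CPM, 85.9 to 131 CPM and 64.7 to 111 CPM in the same order, with 2 of 7 higher and 4 lower in CAST/EiJ and 1 and 5 in NZO/HlLtJ. In NZO/HlLtJ all 7 intercalated cell, all 6 endothelial and all 6 fibroblast and smooth muscle markers were lower than in C57BL/6J, at a summed 132 to 274, 330.4 to 416 and 108 to 182 CPM against 219 to 334, 388 to 484 and 165 to 281 CPM. No marker of these 6 lists was at 0 in any library. The part of these cells in the strain differences of the members was not tested.

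The mitochondrial members differed among themselves. mt-Nd2, a membrane subunit of complex I, had 6945, 9430 and 12097 CPM in C57BL/6J as lowest, median and highest, 10016, 12171 and 16442 CPM in CAST/EiJ, and 5170, 6108 and 9330 CPM in NZO/HlLtJ. It was 0.48 ± 0.048 higher in CAST/EiJ (edgeR adjusted p = 9.62e-12) and lower in NZO/HlLtJ (-0.53 ± 0.048, adjusted p = 1.59e-12). CAST/EiJ and NZO/HlLtJ did not overlap, and their difference was -1.01 ± 0.050 for NZO/HlLtJ against CAST/EiJ (adjusted p = 1.18e-21).

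mt-Nd3 was lower in both strains than in C57BL/6J, by -0.79 ± 0.073 in CAST/EiJ and -0.74 ± 0.073 in NZO/HlLtJ. It had 459 to 712 CPM in C57BL/6J, 258 to 466 CPM in CAST/EiJ and 245 to 502 CPM in NZO/HlLtJ. With its copy Gm28438 added, the differences of mt-Nd3 were -0.68 and -0.49. mt-Nd5, the largest of the mitochondrially encoded complex I subunits, was -0.55 ± 0.055 in NZO/HlLtJ (edgeR adjusted p = 2.92e-11) and -0.16 ± 0.055 in CAST/EiJ (adjusted p = 0.0112).

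mt-Nd1 was -0.27 ± 0.039 in CAST/EiJ (edgeR adjusted p = 1.13e-07) and -0.26 in NZO/HlLtJ. mt-Nd4 and mt-Nd6 were not called in CAST/EiJ (-0.06 and -0.10) and were -0.22 and -0.28 in NZO/HlLtJ. mt-Cytb was 0.14 in CAST/EiJ and -0.08 in NZO/HlLtJ. mt-Co1 was -0.11 in CAST/EiJ and not called in NZO/HlLtJ (-0.04, adjusted p = 0.285). mt-Atp6 was 0.52 ± 0.051 in CAST/EiJ alone, but -0.02 with the counts of its identical copy Gm10925 added, where it was not called (adjusted p = 0.735). The mitochondrial ribosomal RNAs mt-Rnr1 and mt-Rnr2, which are no members, were both lower too, at -0.43 and -0.42 in CAST/EiJ and -0.64 and -0.38 in NZO/HlLtJ.

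Promoters of the nuclear members were read from RefSeq (GRCm38.p6), in windows from 250 bases before to 50 bases after the start, 300 bases in all. Only the reference sequence was read, and the part of promoter motifs in the strain differences was not tested. Of the 83 nuclear members 69 matched, with 75 promoters, against 32851 promoters of all genes, and both strands were searched. The NRF1 half-site GCGCATG was in 13 of 75 (17.3%) against 3.91% of all. The ETS motif CCGGAAG, which the factor GABPA binds, was in 16 (21.3%) against 8.86%. The YY1 core ATGGCGG was in 13 (17.3%), promoters of 11 genes, against 4.05%, and the estrogen-related receptor motif TNAAGGTCA in 3 (4.0%) against 1.28%. None of these motifs contains another, and a match is a description of the letters only.

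The 150 bases before the start are shown for 4 members, 1 line each, with the motif in capitals, as examples of the NRF1 half-site (Atp5k and Ndufa11, where it occurs on both strands and the pair overlaps) and of the ETS motif (Uqcr11, and Cox6a1 on the opposite strand, where it reads CTTCCGG). They lie at chr5:108434400-108434549 (minus strand) for Atp5k, chr17:56717612-56717761 (plus strand) for Ndufa11, chr10:80406822-80406971 (minus strand) for Uqcr11 and chr5:115348959-115349108 (minus strand) for Cox6a1.
Atp5k: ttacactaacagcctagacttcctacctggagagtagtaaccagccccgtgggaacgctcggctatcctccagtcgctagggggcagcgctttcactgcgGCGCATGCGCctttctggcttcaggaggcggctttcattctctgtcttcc
Ndufa11: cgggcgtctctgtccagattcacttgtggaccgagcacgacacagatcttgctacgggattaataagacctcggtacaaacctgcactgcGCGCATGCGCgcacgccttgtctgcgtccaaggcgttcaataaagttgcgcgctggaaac
Uqcr11: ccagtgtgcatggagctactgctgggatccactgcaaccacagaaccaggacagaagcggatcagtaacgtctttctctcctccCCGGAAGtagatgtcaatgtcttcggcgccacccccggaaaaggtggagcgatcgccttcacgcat
Cox6a1: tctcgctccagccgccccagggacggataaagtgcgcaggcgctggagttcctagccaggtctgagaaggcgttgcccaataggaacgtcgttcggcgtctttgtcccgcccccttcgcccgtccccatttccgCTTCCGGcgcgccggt

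Summed over the members, the 2 genomes did not follow the same order over the strains. The nuclear sum averaged 15046 ± 722 CPM in C57BL/6J (SD, n = 16), 17344 ± 1209 in CAST/EiJ (n = 15) and 16535 ± 1351 in NZO/HlLtJ (n = 16). The mitochondrial sum without mt-Co2 averaged 127339 ± 13029, 127150 ± 10539 and 112342 ± 14647 CPM, so C57BL/6J and CAST/EiJ did not differ beyond their spread. The ratio of the mitochondrial to the nuclear sum, taken in each library and averaged, was 8.46, 7.35 and 6.81. With mt-Co2 put back, the mitochondrial sums averaged 132728, 127165 and 117202 CPM. With mt-Co2 and the copies of all members included, they averaged 156101, 152031 and 138503 CPM.

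Over the 12 groups (mean ± SD, n = 4 except n = 3 for CAST/EiJ males on 10% fat), the nuclear sum was lowest in C57BL/6J females on 10% fat at 14186 ± 495 CPM and highest in CAST/EiJ males on 44% fat at 18358 ± 557 CPM. The next groups below the highest were CAST/EiJ males on 10% fat at 18068 ± 658 and NZO/HlLtJ males on 10% fat at 17597 ± 1733, each within its own SD of the highest. The mitochondrial sum was lowest in NZO/HlLtJ females on 10% fat at 100088 ± 4578 CPM and highest in CAST/EiJ males on 10% fat at 144767 ± 3554 CPM. C57BL/6J males on 44% fat, at 143673 ± 5123 CPM, did not differ from the latter beyond their spread. The ratio of the mitochondrial to the nuclear sum, averaged over the libraries of a group, was lowest in NZO/HlLtJ males on 10% fat at 6.15 and highest in C57BL/6J males on 44% fat at 9.40. In males, the ratio on 44% against 10% fat was 9.40 against 8.33 in C57BL/6J, 6.76 against 8.02 in CAST/EiJ and 7.75 against 6.15 in NZO/HlLtJ. In females it was 8.03 against 8.08, 7.43 against 7.35 and 6.74 against 6.60.

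**Figure D3:**
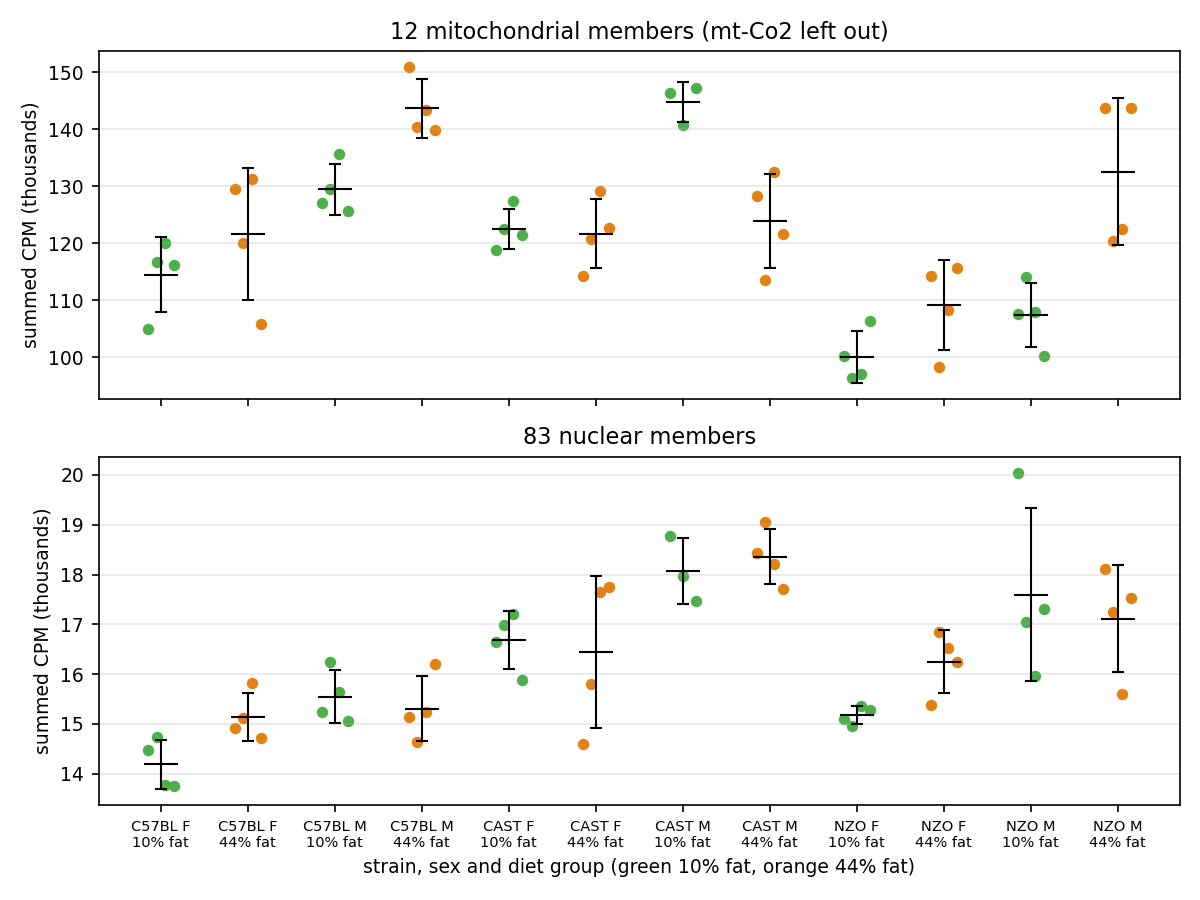
Summed level of the nuclear members and of the mitochondrial members without mt-Co2 in each library, in CPM, by strain, sex and diet, with the group mean and SD as bars, on axes that do not start at 0. Points are libraries, in groups named by strain, sex and diet; the mitochondrial sum of the NZO/HlLtJ males is higher on 44% fat in all 4 libraries and that of the CAST/EiJ males lower in all 4.

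The sexes were compared within each strain. With TMM scaling, most called members were lower in females, but the direction of the nuclear members turned over when libraries were scaled by their total counts instead. With TMM, 8 nuclear members were higher and 26 lower in C57BL/6J females, 2 and 37 in CAST/EiJ and 4 and 40 in NZO/HlLtJ, with medians of -0.05, -0.10 and -0.12 against 0.05, 0.05 and 0.04 over all genes. The share of all genes called was 47.9%, 47.6% and 49.9%, with 25.1%, 23.7% and 25.4% higher and 22.7%, 23.9% and 24.5% lower. With total counts, 42 were higher and 5 lower, 18 and 7, and 26 and 8, and the median over all genes moved to 0.22, 0.20 and 0.21. The nuclear medians were 0.12, 0.05 and 0.05 under total counts, below that median as they were with TMM. A change of scaling moves all genes of a comparison by about the same amount. It therefore cannot test the gap between the members and that median. TMM factors had medians of 1.066, 1.033 and 1.074 in females and 0.948, 0.936 and 0.957 in males.

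For the mitochondrial members with TMM, 10 of 13 were lower in C57BL/6J females and none was higher, 4 of 12 in CAST/EiJ and 11 of 13 in NZO/HlLtJ, with medians of -0.29, -0.12 and -0.23. With total counts, 1 was higher and 4 lower in C57BL/6J, 1 and 1 in CAST/EiJ, and none was called in NZO/HlLtJ. Their medians were then -0.13, 0.04 and -0.06, so the CAST/EiJ median changed sign. All 3 were below the median of all genes under both scalings, a gap that the scaling cannot test. All further sex differences below are on the TMM scale.

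**Figure D4:**
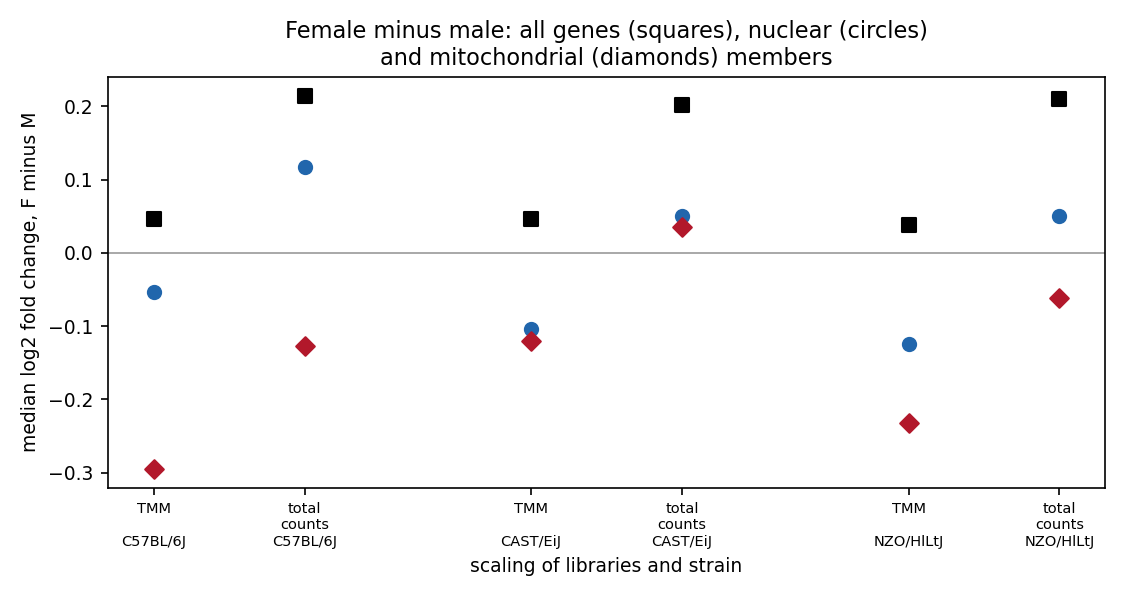
Median log2 difference of females from males in each strain for the nuclear members, the mitochondrial members and all genes tested, with TMM scaling and with total counts. With TMM the nuclear medians are -0.05, -0.10 and -0.12, and with total counts they turn to 0.12, 0.05 and 0.05, while the median of all genes moves from 0.05, 0.05 and 0.04 to 0.22, 0.20 and 0.21.

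In complex I, on the TMM scale, 14, 18 and 19 of 38 nuclear members were lower in females of C57BL/6J, CAST/EiJ and NZO/HlLtJ. Ndufv1, the NADH-binding subunit, had 180.1, 203 and 205.5 CPM in C57BL/6J females and 231, 243 and 254 CPM in males. It had 156, 182 and 201 CPM in CAST/EiJ females and 226, 239 and 247 CPM in males, and 214, 223 and 237 CPM in NZO/HlLtJ females and 246, 285 and 326 CPM in males. Females and males overlapped in no strain. The log2 differences were -0.31, -0.38 and -0.32 (edgeR adjusted p = 1.54e-07, 2.5e-09 and 3.75e-08).

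Ndufa10 was -0.30, -0.28 and -0.31 in females and Ndufa13 -0.22, -0.35 and -0.32, in the same order of strains. Ndufb4 was -0.44, -0.39 and -0.46, and it has a copy, Ndufb4c, with 0 of 387 aligned bases differing, so its level is uncertain. In complex II, all 4 members were lower in C57BL/6J and NZO/HlLtJ and 3 of 4 in CAST/EiJ, with Sdhb at -0.15, -0.15 and -0.17 and Sdhc at -0.13, -0.18 and -0.21. In complex III, 4, 5 and 5 of 8 were lower, among them Uqcrfs1 at -0.23 in CAST/EiJ and -0.28 in NZO/HlLtJ. In complex V, 3, 8 and 9 of 17 were lower, among them Atp5f1, a subunit of the peripheral stalk, at -0.25 in CAST/EiJ and -0.24 in NZO/HlLtJ.

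In complex IV, 6, 2 and 4 of 16 nuclear members were higher in females and 1, 3 and 3 lower, in C57BL/6J, CAST/EiJ and NZO/HlLtJ. Cox8b had 0.872, 1.15 and 1.84 CPM in NZO/HlLtJ females and 0, 0.0443 and 0.216 CPM in males, without overlap, a log2 difference of 4.39 ± 0.570 (edgeR adjusted p = 2.86e-08). In C57BL/6J it had 0.327, 0.692 and 1.60 CPM in females and 0, 0.0814 and 0.336 CPM in males, with an overlap at the ends and a log2 difference of 2.92. Cox6b2 was 0.78, 0.59 and 0.68 higher in females. Its C57BL/6J females had 1.79 to 2.51 CPM and its males 0.969 to 1.52 CPM, without overlap. Cox7a1, the muscle form of subunit 7a, was 0.49 higher in C57BL/6J females, and Cox7b was 0.13, 0.19 and 0.12 higher. Cox8b, Cox6b2 and Cox7a1 are low-count genes here.

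Adipocyte markers were read beside Cox8b. Of 6 such markers 1 was higher in females of C57BL/6J, 1 in CAST/EiJ and 5 in NZO/HlLtJ, and none was lower. Of all genes 25.1%, 23.7% and 25.4% were higher in females, in the same order. For the adipocyte markers, levels were also summed. Their summed level was 6.16 to 15.1 CPM in NZO/HlLtJ females and 1.97 to 5.89 CPM in males, without overlap. It was 5.43 to 12.7 against 2.94 to 11.1 CPM in C57BL/6J and 5.28 to 19.9 against 4.203 to 13.6 CPM in CAST/EiJ, with overlap. Adipoq was at 0 in 1 of the 47 libraries, Lep in 11 and Retn in 8. Of 5 brown adipocyte markers, 1 was higher in C57BL/6J females, none was called in CAST/EiJ and 2 were higher in NZO/HlLtJ females, at a summed 16.3 to 23.6 CPM against 12.5 to 22.9 CPM in NZO/HlLtJ males. The part of such cells in the sex difference of Cox8b was not tested.

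The mitochondrial members mt-Nd2 (-0.40, -0.34 and -0.27) and mt-Nd5 (-0.38, -0.22 and -0.24) were lower in females of C57BL/6J, CAST/EiJ and NZO/HlLtJ on the TMM scale, as was mt-Cytb (-0.24, -0.21 and -0.23). mt-Nd5 had 9721 to 13584 CPM in C57BL/6J females and 13128 to 15865 CPM in males, which overlapped at their ends.

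Cell type markers were read beside the sex differences. Of all genes 25.1%, 23.7% and 25.4% were higher in females of C57BL/6J, CAST/EiJ and NZO/HlLtJ, and 22.7%, 23.9% and 24.5% lower. All 12 proximal tubule markers were present in every library. Their summed level was 19287 to 21898 CPM in C57BL/6J females and 25444 to 26997 CPM in males, 14922 to 19842 against 21740 to 23866 in CAST/EiJ, and 17599 to 22564 against 23270 to 25361 in NZO/HlLtJ, without overlap in any strain. Of these markers 5, 6 and 5 were lower in females and 3, 4 and 3 higher. All 5 podocyte markers were higher in females of each strain, at a summed 477 to 522, 492 to 537 and 488 to 527 CPM against 338 to 411, 326 to 407 and 305 to 379 CPM in males. Of 7 intercalated cell markers, 7, 6 and 7 were higher. The part of these cells in the sex differences of the members was not tested.

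The sex difference itself was compared between strains. Between CAST/EiJ and C57BL/6J it differed for 6 members, 2 higher and 4 lower, where 13.2% of all genes were called, 5.94% higher and 7.3% lower. Between NZO/HlLtJ and C57BL/6J it differed for 1 member, Ndufc2, higher by 0.21, against 4.95% of all genes, 2.6% higher and 2.35% lower. No member was called there when any 1 of 21 libraries was left out, and without NZO/HlLtJ male replicate 3 on 44% fat the single call was a lower one. Between NZO/HlLtJ and CAST/EiJ it differed for 4, 3 higher and 1 lower, against 14.3%, 7.81% higher and 6.53% lower. These comparisons share libraries. The complex I subunit Ndufb8 had 189 to 231 CPM in C57BL/6J females and 175 to 222 CPM in males, and 173 to 221 CPM in CAST/EiJ females and 217 to 261 CPM in males. The groups overlapped within each strain. The difference between the sex effects was -0.36 for CAST/EiJ against C57BL/6J (edgeR adjusted p = 0.000626). For Cox8b it was -2.09 in that comparison and 3.56 for NZO/HlLtJ against CAST/EiJ (adjusted p = 0.000709). CAST/EiJ females had 0.248 to 1.29 CPM of Cox8b and males 0.120 to 1.09 CPM.

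The diets were compared within each strain and sex, and over both sexes of a strain. No nuclear member was called over both sexes in any strain with edgeR or DESeq2, where 0.0266% of all genes were called in C57BL/6J (0.0213% higher), 0.99% in CAST/EiJ (0.543% higher and 0.447% lower) and 3.62% in NZO/HlLtJ (1.98% higher and 1.64% lower). At an unadjusted p under 0.05 there were 2 nuclear members in C57BL/6J, 1 in CAST/EiJ and 7 in NZO/HlLtJ. Counts at an unadjusted p under 0.05 or by sign are given here and below without the share of all genes. They do not show that the members differ from all genes. Within a sex, the single call among nuclear members was Ndufa1, a small complex I subunit, in NZO/HlLtJ males, where 3.51% of all genes were called. Its levels were 84.5, 82.2, 80.5 and 76.0 CPM on 10% fat and 72.7, 66.0, 57.4 and 68.9 CPM on 44% fat. Every library on 44% fat was below every one on 10% fat, and the difference was -0.28 ± 0.080 (edgeR adjusted p = 0.0491). The call of Ndufa1 was lost when any 1 of these 8 libraries other than replicate 4 on 10% fat was left out.

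In NZO/HlLtJ females, 81 of 83 nuclear members had a positive diet difference, with a median of 0.12. None passed the test with edgeR or DESeq2, where 0.149% of all genes were called at the adjusted p. At an unadjusted p under 0.05 there were 23, a count without the share of all genes beside it. In 18 nuclear members all 4 libraries on 44% fat lay above all 4 on 10% fat, where 4.09% of all genes did so. The nuclear sum was 15174 ± 184 CPM on 10% fat and 16250 ± 633 CPM on 44% fat. In NZO/HlLtJ males, 68 of 83 had a negative difference, with a median of -0.09, and 12 had an unadjusted p under 0.05. The difference of the diet effects between NZO/HlLtJ females and males was called for no member with edgeR or DESeq2, against 0.00532% of all genes, and 30 nuclear members had an unadjusted p under 0.05. In C57BL/6J and CAST/EiJ no nuclear member was called in either sex with edgeR or DESeq2. The share of all genes called was 0% in C57BL/6J females, 0.00532% in C57BL/6J males, 0.144% in CAST/EiJ females and 0.58% in CAST/EiJ males, and 7, 1, 2 and 2 nuclear members had an unadjusted p under 0.05.

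Mitochondrial members were called for diet in NZO/HlLtJ. Over both sexes, 7 of 13 were higher on 44% fat and none lower: mt-Nd1 by 0.24 (edgeR adjusted p = 0.00884), mt-Nd2 by 0.25, mt-Nd4 by 0.23, mt-Nd4l by 0.22, mt-Nd5 by 0.39 (adjusted p = 0.002), mt-Nd6 by 0.40 and mt-Co1 by 0.21 (adjusted p = 0.00436). mt-Nd3 (-0.07, adjusted p = 0.801) and mt-Co2 (0.03) were not called. Leaving out a library on 44% fat, replicate 1 or 4 of either sex, lowered the count of 7 to 3. Leaving out female replicate 3 or male replicate 4 on 10% fat lowered it to 4. It fell to 2 when only the NZO/HlLtJ libraries entered the fit.

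Within NZO/HlLtJ males 6 of 13 were higher, against 3.51% of all genes called. mt-Nd5 had 6130, 7851, 8967 and 7303 CPM on 10% fat and 12939, 9990, 11372 and 12128 CPM on 44% fat, without overlap, a difference of 0.64 ± 0.110 (edgeR adjusted p = 0.000899). mt-Nd6, the subunit encoded on the opposite strand, had 1232, 1157, 1704 and 1096 CPM on 10% fat and 2269, 1754, 1939 and 2111 CPM on 44% fat, a difference of 0.67 (adjusted p = 0.0132), also without overlap. mt-Nd5 and mt-Nd6 overlap by 14 bases on opposite strands. Whether the counting used strand is not given in the sources used here. Reads of opposite strands therefore cannot be told apart, in that stretch or elsewhere in mt-Nd6.

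mt-Nd1 had 9338, 9076, 8949 and 8328 CPM on 10% fat and 12386, 10475, 10350 and 11747 CPM on 44% fat in NZO/HlLtJ males, a difference of 0.32 (edgeR adjusted p = 0.0178). mt-Co1 had 38509, 39762, 37569 and 36851 CPM against 51062, 43035, 42280 and 50736 CPM, a difference of 0.28 (adjusted p = 0.0106). mt-Nd4 had 12508, 13871, 13041 and 11163 CPM against 16495, 14150, 15340 and 17215 CPM, a difference of 0.30 (adjusted p = 0.0491). The diets did not overlap for mt-Nd1, mt-Co1 or mt-Nd4.

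mt-Nd2 was 0.36 higher in NZO/HlLtJ males (edgeR adjusted p = 0.0307), with 6137, 7060, 6079 and 5515 CPM against 9330, 7054, 7359 and 8591 CPM, where 1 library on 10% fat exceeded 1 on 44% fat. Not called were mt-Nd4l (0.30, adjusted p = 0.0591), mt-Nd3 (-0.00), mt-Cytb (0.12), mt-Co3 (0.13), mt-Atp6 (0.23), mt-Atp8 (0.56) and mt-Co2 (-0.03). The groups of NZO/HlLtJ males did not overlap, with 44% fat higher, for 5 of 13 mitochondrial members, where 3.24% of all genes did so. In NZO/HlLtJ females no mitochondrial member was called with edgeR or DESeq2, and 2 had an unadjusted p under 0.05. The count of 6 in males fell to 1 without replicate 1 on 44% fat, to 2 without replicate 4 on 44% fat or replicate 1 on 10% fat, and to 0 when only the NZO/HlLtJ libraries entered the fit, where the difference of mt-Nd5 was 0.64 (adjusted p = 0.082).

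CAST/EiJ males went the other way. All 12 mitochondrial members compared had a negative difference, with a median of -0.30, and 9 had an unadjusted p under 0.05, but only mt-Nd1 was called with edgeR, where 0.58% of all genes were called. mt-Nd1 had 11286, 10317 and 10087 CPM on 10% fat and 8882, 7244, 9070 and 8052 CPM on 44% fat, a difference of -0.35 ± 0.080 (adjusted p = 0.0367), and the diets did not overlap. This call was lost when any 1 of the libraries other than replicate 3 on 44% fat was left out, and 2 members were called without that one. mt-Nd2 had 15966, 15889 and 16442 CPM against 13692, 11859, 14842 and 12171 CPM (-0.30, adjusted p = 0.164). mt-Nd4 had 16835, 17220 and 18634 CPM against 14187, 12112, 15486 and 13835 CPM (-0.34, adjusted p = 0.07). For 9 of 12 members every library on 44% fat lay below every one on 10% fat, where 5.51% of all genes did so. In CAST/EiJ females none was called with edgeR or DESeq2, and none had an unadjusted p under 0.05. In CAST/EiJ males the 7 macrophage markers summed to 126 to 146 CPM on 10% fat and 158 to 172 CPM on 44% fat, and the 6 B and plasma cell markers to 6.54 to 8.80 CPM and 10.9 to 36.4 CPM, without overlap. None of these markers was called with edgeR, 5 macrophage and 0 B and plasma cell markers had an unadjusted p under 0.05, and none was at 0 in any library. Macrophage sums of the CAST/EiJ females were 111 to 122 CPM on 10% fat and 133 to 158 CPM on 44% fat. Their B and plasma cell sums were 3.79 to 8.45 CPM and 11.7 to 23.1 CPM, both without overlap. The part of these cells in the mitochondrial differences of CAST/EiJ males was not tested.

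In C57BL/6J no mitochondrial member was called with edgeR or DESeq2, in either sex or over both, with 5 at an unadjusted p under 0.05 over both sexes, 4 in males and 0 in females. All 13 differences over both sexes were positive. The groups of C57BL/6J males did not overlap, with 44% fat higher, for 5 of 13 mitochondrial members, where 1.9% of all genes did so. The mitochondrial sum of the C57BL/6J males was 127071, 129560, 135731 and 125632 CPM on 10% fat and 151018, 140425, 143331 and 139918 CPM on 44% fat, without overlap. That of the NZO/HlLtJ males was 107608, 114063, 107980 and 100326 CPM against 143763, 120421, 122542 and 143698 CPM. That of the CAST/EiJ males was 146356, 140695 and 147249 CPM against 128268, 113549, 132515 and 121560 CPM. The sum was thus higher on 44% fat in every male library of C57BL/6J and NZO/HlLtJ and lower in every one of CAST/EiJ.

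**Figure D5:**
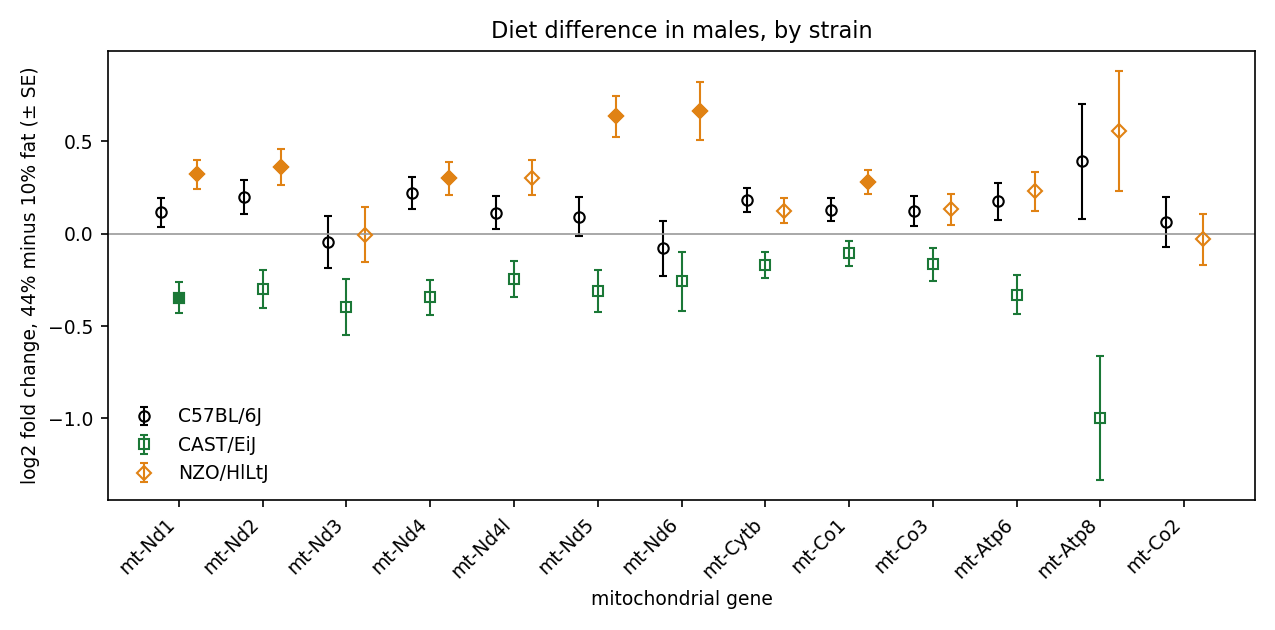
Log2 difference between 44% and 10% fat in males for each mitochondrial member, with its SE, by strain; filled symbols passed the test at an adjusted p of 0.05. The NZO/HlLtJ points reach 0.67 for mt-Nd6 and 0.64 for mt-Nd5, all 12 CAST/EiJ points lie below 0, and no C57BL/6J point was called.

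The sample numbers in the labels fall into 3 runs of consecutive numbers, and the diets were also compared inside each run. The CAST/EiJ males have both diets in all 3 runs, and the mitochondrial sum differed by -0.19, -0.19 and -0.28 on the log2 scale within them, with mt-Nd1 at -0.35, -0.34 and -0.33. The NZO/HlLtJ males share diets in 1 run only, with 2 libraries on each diet. There the mitochondrial sum differed by 0.25, mt-Nd5 by 0.71, mt-Nd1 by 0.31, mt-Co1 by 0.27 and the nuclear sum by -0.07. In the C57BL/6J males the mitochondrial sum differed by 0.25, 0.12 and 0.12.

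The diet effects of the strains were then compared with each other. Between NZO/HlLtJ and CAST/EiJ over both sexes the effect differed for 7 mitochondrial members and no nuclear one, where 1.28% of all genes were called, with differences from 0.26 for mt-Co1 to 0.62 for mt-Nd6. In males it differed for 8 mitochondrial members, where 1.95% of all genes were called. mt-Nd1 differed by 0.67 and mt-Nd5 by 0.95 (both edgeR adjusted p = 0.0016), and mt-Nd2, mt-Nd4, mt-Nd4l, mt-Nd6, mt-Atp6 and mt-Co1 differed by 0.66, 0.65, 0.55, 0.92, 0.56 and 0.39. In females it differed for none with edgeR or DESeq2, with 0 mitochondrial and 14 nuclear members at an unadjusted p under 0.05. Over both sexes the count of 7 fell to 3 without CAST/EiJ male replicate 1 or 3 or female replicate 3 on 10% fat, CAST/EiJ male replicate 2 on 44% fat, or NZO/HlLtJ male replicate 1 or 4 or female replicate 4 on 44% fat, and also when only these strains entered the fit. It fell to 4 without NZO/HlLtJ female replicate 2 or 3 or male replicate 4 on 10% fat, or female replicate 1 on 44% fat. In males the count of 8 fell to 3 without CAST/EiJ replicate 2 on 44% fat or replicate 3 on 10% fat, and to 4 without NZO/HlLtJ replicate 1 or 4 on 44% fat or when only these strains entered the fit.

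No member was called for a diet effect that differed from C57BL/6J with edgeR, where 0.0532% of all genes were called for CAST/EiJ and 0.0373% for NZO/HlLtJ over both sexes. For CAST/EiJ, 10 mitochondrial and 0 nuclear members had an unadjusted p under 0.05 over both sexes, and 10 and 1 in males, where DESeq2 called 3 members. For NZO/HlLtJ these were 2 and 0 over both sexes and 2 and 2 in males, and DESeq2 called none.

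Other genes of the pathway were read from lists chosen by function. Of all genes, 71.4% were called in CAST/EiJ against C57BL/6J (36.2% higher and 35.2% lower). In NZO/HlLtJ against C57BL/6J, 52.2% were called (26.4% higher and 25.8% lower). A list with counts near these shares does not stand out from all genes. Of 77 mitochondrial ribosomal proteins, 48 were higher and 11 lower in CAST/EiJ, and 35 higher and 6 lower in NZO/HlLtJ, both against C57BL/6J. Of 14 citrate cycle genes, 11 were higher in each strain, with 1 lower in NZO/HlLtJ. The electron carriers and synthase partners outside the symbol rule were higher in both strains: cytochrome c (Cycs) by 1.53 in CAST/EiJ and 0.35 in NZO/HlLtJ, cytochrome c1 (Cyc1) by 0.29 and 0.29, Usmg5 by 0.68 and 0.29 and the synthase inhibitor Atpif1 by 0.34 and 0.14. Copies elsewhere in the genome were searched for the members only. Their part in the differences of these and the other list genes was not tested. Of 14 complex I assembly genes, 4 were higher and 8 lower in CAST/EiJ and 7 and 3 in NZO/HlLtJ, with Ndufaf5 at 0.80 and 0.77 and Ndufaf2 at -0.87 and -0.71. Of 29 assembly genes of complexes III and IV, 13 were higher and 9 lower in CAST/EiJ and 14 and 6 in NZO/HlLtJ, led by Lyrm7 at 1.60 and 2.32.

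The next lists are read against the same shares of all genes called, 71.4% in CAST/EiJ and 52.2% in NZO/HlLtJ. Among 24 genes of mitochondrial transcription and RNA handling, 12 were higher and 7 lower in CAST/EiJ, and 13 higher and 1 lower in NZO/HlLtJ, where the mitochondrial members were lower or not called. These included the mitochondrial RNA polymerase Polrmt at 0.31 and the packaging factor Tfam at 0.15 in NZO/HlLtJ. Of 12 regulators of mitochondrial biogenesis, 6 were higher and 2 lower in CAST/EiJ and 7 and 2 in NZO/HlLtJ, with Esrrb at 0.32 and 0.27. Among 9 carriers, the transhydrogenase Nnt, known to be disrupted in C57BL/6J, was 0.99 and 0.75 higher, and the uncoupling protein Ucp2 was -0.30 and -0.53.

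In females, on the TMM scale, 48, 58 and 58 of the 77 mitochondrial ribosomal proteins were lower in C57BL/6J, CAST/EiJ and NZO/HlLtJ, and 10, 11 and 13 of the 14 citrate cycle genes. Over all genes 22.7%, 23.9% and 24.5% were lower and 25.1%, 23.7% and 25.4% higher. Cycs was -0.75, -0.79 and -0.96. Among the 9 carriers, 4, 4 and 5 were higher and none lower, with Ucp2 at 0.49, 0.62 and 0.72.

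With diet, few of these genes changed, where 3.51% of all genes were called in NZO/HlLtJ males (1.83% higher and 1.68% lower). In NZO/HlLtJ males none of the 77 mitochondrial ribosomal proteins was called with edgeR (13 at an unadjusted p under 0.05) and none of the 14 citrate cycle genes (5 at an unadjusted p under 0.05). Called higher were the mitochondrial ribosomal RNA mt-Rnr2 by 0.69 (adjusted p = 0.0246), the mitochondrial RNA-binding protein gene Lrpprc by 0.24 (adjusted p = 0.00891) and the biogenesis coactivator gene Ppargc1a by 0.38 (adjusted p = 0.0371). mt-Rnr1 was 0.70 (adjusted p = 0.0722). Of the cell type markers in these males, 3 of 6 principal cell markers were higher on 44% fat, at a summed 215 to 342 CPM against 199 to 230 CPM. Of 6 thick ascending limb markers 2 were lower, at a summed 2961 to 3531 CPM against 3564 to 3909 CPM, without overlap. Of 12 proximal tubule markers none was called. The part of these cells in the mitochondrial differences was not tested.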

How the data were processed

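Gene-level estimated counts, deposited by the authors for 47 libraries, were rounded to whole numbers, since 21% of the values were not whole. A second matrix, variance-stabilized on a log2 scale and deposited by the authors, ran from 5.93 to 21.1 and served as an alternative. The genome build GRCm38 and the tool DESeq2 are named in the submitters' processing notes. The aligner, the counter and the use of strand are not given in the sources used here. Per the labels, poly(A) RNA was sequenced in 100-base pairs.

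Counts were fitted with edgeR 4.0.16 in R 4.3.3 (filterByExpr, TMM, robust quasi-likelihood) with 12 group means and a term for the 3 runs of sample numbers, leaving 33 residual degrees of freedom. Of 22474 genes, 18786 were tested, with Benjamini-Hochberg adjustment over all of them. Library totals of 34394546 to 58433712 counts set the precision. Alternatives used DESeq2 1.42.0 and limma 3.58.1, other scalings and filters, counts summed with copies, and each library left out. Summing with copies and scaling by total counts were added after seeing the data. The scripts were tested on simulated data.

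The members and lists were chosen with earlier results of these data known. Named in the text are all mitochondrial members, the paralogues, and per complex and comparison the members with the smallest adjusted p or the largest changes. From each list, up to 4 genes with the smallest adjusted p are named. A member named in 1 comparison is given in others where its values bear on it, and a few further members were chosen after their values were seen. Copies were found as genes that share at least 5% of a member's 31-base words, are no members themselves and do not overlap the member's gene. A mean ± SD is over libraries of a group. The NRF1 and YY1 letters searched in promoters were shortened after longer forms of both had been searched, which were rarer in all promoters and also more frequent in those of members.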

Additional observations from a re-analysis of the deposited data

Results flagged for a closer look

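The highest or lowest library was tested against the rest of its group for 16 measures, in 173 groups of 4 libraries, and 7 stood apart, where chance alone gives about 1 in 20 groups. mt-Nd1 was 9625 CPM in replicate 3 of the CAST/EiJ females on 44% fat, against 8821 to 8837 CPM in the others. mt-Nd3 was 267 CPM in replicate 3 of the CAST/EiJ females on 10% fat, against 300 to 304 CPM (299.9 at the lowest). mt-Nd4 was 16390 CPM in replicate 3 of the C57BL/6J males on 10% fat, against 15563 to 15618 CPM. mt-Nd4l was 1336 CPM in replicate 4 and mt-Nd6 2073 CPM in replicate 1 of the C57BL/6J females on 44% fat, against 1635 to 1662 and 1483 to 1579 CPM. mt-Atp6 was 3910.3 CPM in replicate 1 of the C57BL/6J females on 10% fat, against 4709 to 4812 CPM, and 6686 CPM in replicate 1 of the C57BL/6J males on 44% fat, against 5614 to 5764 CPM.

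The sex difference differed between strains, by edgeR's test of the interaction, for these members. Between CAST/EiJ and C57BL/6J the log2 difference of the sex effects was 0.28 for mt-Nd1, -0.23 for Ndufab1, -0.36 for Ndufb8, 0.23 for Ndufv3, -0.50 for Cox7a1 and -2.09 for Cox8b. Between NZO/HlLtJ and C57BL/6J it was 0.21 for Ndufc2. Between NZO/HlLtJ and CAST/EiJ it was 0.33 for Ndufb8, -0.26 for Ndufv3, 3.56 for Cox8b and 0.31 for Atp5s. The counts of Ndufab1 are shared with its copies.

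The diet difference differed between NZO/HlLtJ and CAST/EiJ, by the same test. Over both sexes it differed by 0.41 for mt-Nd1, 0.37 for mt-Nd2, 0.44 for mt-Nd4, 0.35 for mt-Nd4l, 0.60 for mt-Nd5, 0.62 for mt-Nd6 and 0.26 for mt-Co1. In males it differed by 0.67 for mt-Nd1, 0.66 for mt-Nd2, 0.65 for mt-Nd4, 0.55 for mt-Nd4l, 0.95 for mt-Nd5, 0.92 for mt-Nd6, 0.39 for mt-Co1 and 0.56 for mt-Atp6.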

How the results depend on the processing

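Of 217 strain calls among the members, between 201 and 217 were kept under the alternative settings run. Of 142 sex calls, total counts without TMM kept 39 and turned 43 to the other direction, and the other settings kept 134 to 142. With total counts the sex calls were 47, 25 and 34 nuclear and 5, 2 and 0 mitochondrial members in C57BL/6J, CAST/EiJ and NZO/HlLtJ, and 2 nuclear members were called for diet in NZO/HlLtJ males. Leaving out 1 library gave 2 to 6 mitochondrial sex calls in CAST/EiJ, with 2 without male replicate 1 on 44% fat or replicate 3 on 10% fat. The sex effect that differed between NZO/HlLtJ and C57BL/6J gave 0 members without the filter, 3 with limma-voom (1 higher and 2 lower) and 0 to 2 with a library left out (2 without NZO/HlLtJ male replicate 3 on 10% fat, and 1 lower without male replicate 3 on 44% fat). No member was called there without any 1 of 21 libraries, and the single higher call stood without C57BL/6J female replicate 2 or 3 or male replicate 2 on 44% fat, C57BL/6J male replicate 1 or 4 on 10% fat, NZO/HlLtJ replicate 1 of either sex on 10% fat, or NZO/HlLtJ female replicate 2 or male replicate 1 on 44% fat. Without C57BL/6J male replicate 2 on 44% fat, the sex effects of CAST/EiJ and C57BL/6J differed for 5 members, 3 higher and 2 lower, in place of 2 and 4.

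For diet in NZO/HlLtJ over both sexes, limma-voom called 3 nuclear members and leaving out a library 0 to 2 (2 without male replicate 3 on 44% fat). Mitochondrial calls were 4 on the variance-stabilized matrix, 2 with only the strain's own libraries and 3 to 8 with a library left out. In NZO/HlLtJ males, nuclear calls were 0 without the filter, with limma-voom and with only the strain's own libraries, and 0 to 1 with a library left out. Mitochondrial calls there were 3, 0 and 1 to 7 for the variance-stabilized matrix, the strain alone and a library left out. In CAST/EiJ males, mitochondrial calls were 2 with limma-voom, DESeq2 or copies added, 0 on the variance-stabilized matrix or with the strain alone, and 0 to 2 with a library left out. Over both sexes of CAST/EiJ copies added gave 1. The diet effect that differed between CAST/EiJ and C57BL/6J males gave 1 member with limma-voom or copies added, 3 with DESeq2 and 0 to 1 with a library left out (1 without CAST/EiJ replicate 3 on 44% fat). Between NZO/HlLtJ and CAST/EiJ it gave 3 with only those strains and 3 to 9 with a library left out, and in males 4 and 3 to 9, with 5 without CAST/EiJ replicate 1 on 10% fat. The cause of these changes was not tested, except that a fit on fewer strains has fewer libraries.

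With copies added, mt-Atp6 in CAST/EiJ against C57BL/6J turned from 0.52 to -0.0152 on the log2 scale, and Ndufab1 in NZO/HlLtJ against CAST/EiJ from -0.21 to 0.03 (adjusted p = 0.503). No paired analysis was possible because the replicate numbers follow accession order and pair no samples. Depth limits the paralogues Cox4i2, Cox6a2, Cox6b2 and Cox8b most, which had few counts a library.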
